A study of Mus musculus with 10 samples.

Results

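Genes named Zfp followed by a number mostly code for DNA-binding proteins of the zinc finger type, and their mRNA levels were followed in embryonic stem cells (ESCs) that lack DGCR8 or DDX6. Members were chosen by name and by level: protein-coding genes with such a symbol were kept where 3 or more libraries held at least 3 CPM, the count of a gene scaled by the library total without spike-ins. Zfp42, Zfp36 and Zfp598 were left out by name. Of 365 genes with such a symbol, 362 remained, 342 of these had at least 1 count, and 285 passed the level filter, among 11683 genes tested in all. The third-highest library of a gene decided whether it passed. It held 2.96 CPM for Zfp974, Zfp750 and Zfp358, which fell just outside, and 3.07 CPM for Zfp420, 3.16 CPM for Zfp971 and 3.16 CPM for Zfp28, which fell just inside.

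Most of these proteins bind DNA through tandem C2H2 zinc fingers, in which paired cysteines and histidines hold a zinc ion. Many carry a KRAB domain at the other end, which recruits the corepressor TRIM28 and with it the histone methyltransferase SETDB1, and silence transposable elements and imprinted loci early in development. Their genes arose largely by tandem duplication and lie in clusters on the chromosomes, so that neighbours in a cluster are often close relatives.

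Wild-type (WT) V6.5 ESCs gave 3 libraries, and a line without DGCR8, the partner of Drosha in cutting miRNA hairpins from primary transcripts, gave 3 (DGCR8 KO). Cells without DDX6, a helicase that acts in translational repression and mRNA decay, gave 4 libraries, with 2 from each of 2 clones made with CRISPR in V6.5 cells (DDX6 KO). All were grown in Knockout DMEM with fetal bovine serum, LIF and the inhibitors PD0325901 and CHIR99021. Libraries held 2131156 to 4745083 counts, so that 3 counts, taken as the floor, stood for 0.632 to 1.41 CPM. Nothing in the labels says that the DGCR8 KO libraries come from more than 1 line, so a trait of that line and the loss of DGCR8 cannot be told apart.

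The targeted genes were low in the libraries labelled as their knockouts. The mean level of Dgcr8 was 56.1 CPM in WT and 11.6 CPM in DGCR8 KO, and that of Ddx6 was 538 CPM in WT and 87.2 CPM in DDX6 KO. All 6 ESC markers were expressed, with a summed level of 3372 to 3731 CPM in WT, 2976 to 3377 CPM in DGCR8 KO and 3446 to 3773 CPM in DDX6 KO. Sums of markers of other cells differed between genotypes at low levels. The sum of 5 markers of 2-cell-like cells was 0.96 to 3.75 CPM in WT, 1.63 to 7.35 CPM in DGCR8 KO and 10.1 to 21.8 CPM in DDX6 KO. Zscan4c was past the test in DDX6 KO. Usp17lc passed the level filter through DDX6 KO alone, so no test of it is given. Tcstv3 was at 0 in every WT and DGCR8 KO library and Gm4340 was at 0 in every library. The sum of 5 primitive endoderm markers was 7.58 to 11 CPM in WT, 3.26 to 4.75 CPM in DGCR8 KO and 16.5 to 23.8 CPM in DDX6 KO. Only Dab2 was past the level filter, with means of 6.3 CPM in WT, 1.06 CPM in DGCR8 KO and 16.6 CPM in DDX6 KO. The others had means of at most 1.87 CPM in each genotype. In DGCR8 KO Gata4 and Sox17 had lower means than in WT, and Gata6 and Pdgfra higher ones. The sum of 5 fibroblast markers stayed between 2.04 and 9.52 CPM in all libraries. The part of these cells in the results below was not tested, and in bulk samples fewer cells of a type and less RNA per cell cannot be told apart.

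The first comparison asked how the family shifted when miRNA processing was lost. In DGCR8 KO, 11 of 285 members (3.86%) were higher than in WT and 17 (5.96%) were lower, at an adjusted p under 0.05 and a log2 change beyond 1 (limma, Benjamini-Hochberg over all genes tested). Among all genes tested, 8.93% were higher and 5.81% lower. At an adjusted p under 0.05 alone, 27 members (9.47%) were higher and 38 (13.3%) lower, beside 19.9% and 16.5% of all genes. The median log2 change of the members was -0.06, and that of all genes was 0.00. By library, the median over members of the log2 level, less the WT mean of each gene, was -0.06, 0.03 and -0.15 in DGCR8 KO and between -0.00 and 0.03 in WT, so the groups overlapped.

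The second comparison asked the same of the loss of DDX6. In DDX6 KO, 25 members (8.77%) were higher than in WT, beside 7.55% of all genes, and 9 (3.16%) were lower, beside 3.66%. At an adjusted p alone, 62 members (21.8%) were higher and 32 (11.2%) lower, beside 17.9% and 16.6% of all genes. The median log2 change of the members was 0.14, against 0.02 for all genes. The library medians of the members were 0.12 and 0.15 in clone 1 and 0.14 and 0.13 in clone 2, each above the highest WT library.

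Set directly against each other, the knockouts differed more often toward lower levels in DGCR8 KO. In DGCR8 KO against DDX6 KO, 11 members (3.86%) were higher and 42 (14.7%) lower, beside 7.77% and 9.32% of all genes, and at an adjusted p alone 47 (16.5%) were higher and 73 (25.6%) lower, beside 23% and 21%. The median log2 difference was -0.22, against 0.00 for all genes. Of the 42 lower members, 26 were past an adjusted p of 0.05 as higher in DDX6 KO than WT, 15 as lower in DGCR8 KO than WT, 6 as both and 7 as neither. Both comparisons with WT share the same 3 WT libraries, and this one does not use them.

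**Figure D1:**
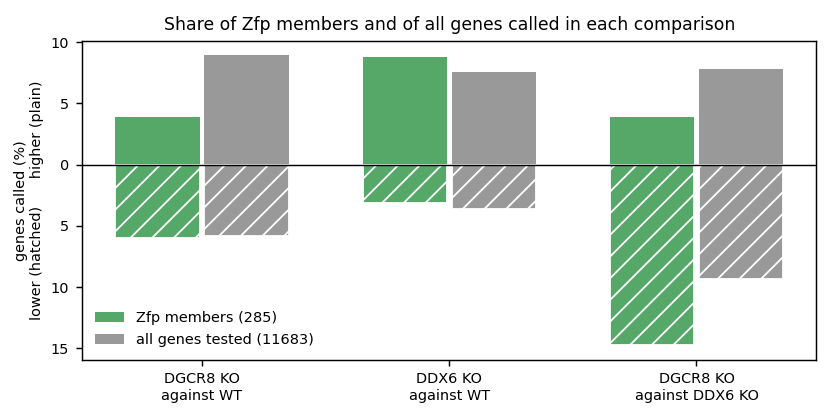
Bars give the percent of genes called higher (plain, upward) and lower (hatched, downward) in each comparison, for the 285 Zfp members (green) and all 11683 genes tested (grey). The members stand at 3.86% higher and 14.7% lower in DGCR8 KO against DDX6 KO, beside 7.77% and 9.32% of all genes.

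The members were lower in level than the rest, with a median of 13.5 CPM against 29.9 CPM over all genes tested, and their changes were less precise, with a median standard error (SE) of 0.27 and 0.25 on the log2 scale in DGCR8 KO and DDX6 KO against 0.20 and 0.19. The filter also let in 11 members with at least 3 CPM in libraries of 1 genotype only, namely Zfp28 in WT and Zfp937, Zfp697, Zfp786, Zfp467, Zfp536, Zfp629, Zfp560, Zfp287, Zfp712 and Zfp994 in DDX6 KO. Such genes had to differ. Without them, 274 members remained, with 11 higher and 16 lower in DGCR8 KO, 17 and 8 in DDX6 KO, and 11 and 35 in the direct comparison. The 17 higher in DDX6 KO were 6.20% of these, beside 7.55% of all genes, and the 35 lower in the direct comparison were 12.8%, beside 9.32%. The shares of all genes still include genes with at least 3 CPM in libraries of 1 genotype only. A filter on the mean over genotypes kept 267 members, with 11 and 14, 18 and 8, and 11 and 36.

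The family was then taken by chromosome cluster. Family genes on a chromosome were joined where the gap between them was at most 500 kb, which gave 23 clusters with 3 or more members on 12 chromosomes, holding 156 of the 285. Chromosome 7 carried 71 members and chromosome 17 carried 33. Clusters are named by chromosome and, where there are several, by a letter in order of position (7a to 7i), with coordinates in GRCm38 (mm10). The cluster median was above 0 in 15 of 23 clusters in DDX6 KO and in 10 of 23 in DGCR8 KO. In the direct comparison it was below 0 in 17. The library medians did not overlap those of WT for 6 clusters that were higher and 2 that were lower in DDX6 KO, and for 2 that were higher and 6 that were lower in DGCR8 KO. Of the 6 higher in DDX6 KO, those on chromosomes 2 and 6 and 9a hold members that passed the level filter through DDX6 KO alone. With 3 libraries against 3 or 4, no exact test over libraries can reach 0.05, so these medians are given without a test.

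**Figure D2:**
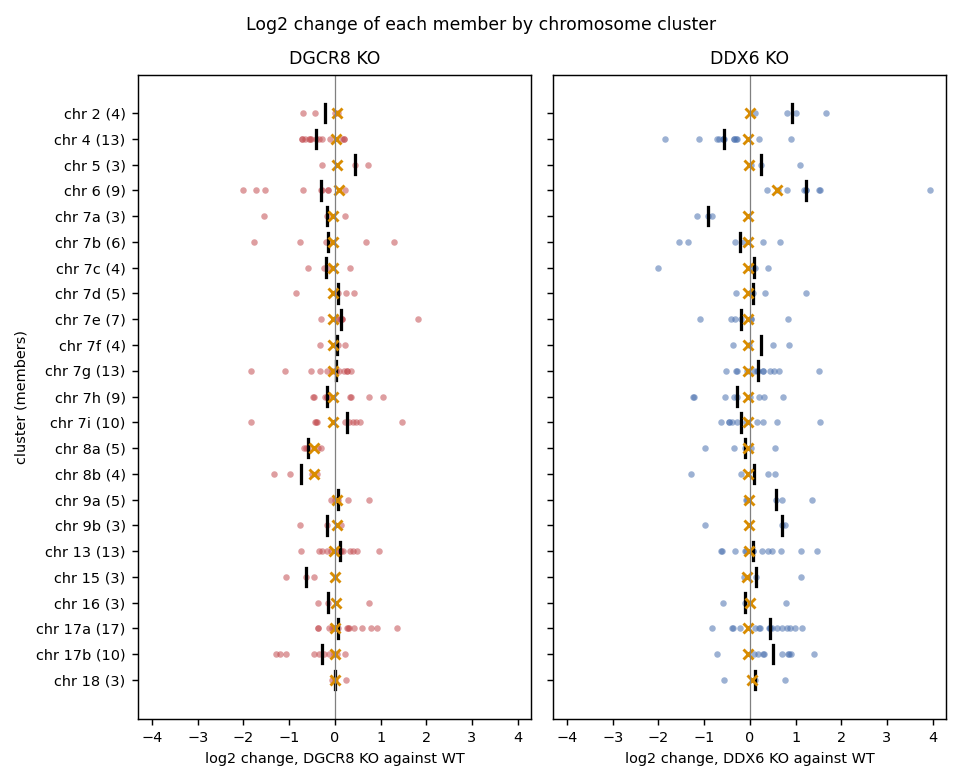
Each point is the log2 change of 1 member against WT in DGCR8 KO (left) or DDX6 KO (right), by cluster, with the number of members in brackets. Bars mark the cluster median and crosses the median of the other genes of that chromosome. The chromosome 6 bar lies at 1.24 in DDX6 KO with its cross at 0.58, and the chromosome 8 bars lie at -0.59 and -0.75 in DGCR8 KO with their cross at -0.46.

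The cluster on chromosome 6 (47819266 to 48623227) held the largest shift of the 23. Its 9 members had a median log2 change of 1.24 in DDX6 KO, where 8 were past an adjusted p of 0.05 as higher and 6 also past the fold limit, and of -0.29 in DGCR8 KO. The library medians were 0.94, 1.22, 1.08 and 1.09 in DDX6 KO, -0.72, -0.20 and -0.79 in DGCR8 KO and 0.12, -0.01 and 0.01 in WT. The 3 genotypes did not overlap. The DGCR8 KO median moved to -0.82 without DGCR8 KO replicate 2 and to -0.89 without WT replicate 3. Between the knockouts the median difference was -1.83, with all 9 members past an adjusted p of 0.05 as lower in DGCR8 KO. Of all genes tested, 17.9% were past an adjusted p of 0.05 as higher in DDX6 KO and 7.55% also past the fold limit. As lower in DGCR8 KO than in DDX6 KO, 21% of all genes were past an adjusted p of 0.05. Zfp467 and Zfp786 passed the level filter only through DDX6 KO. Without them, 6 of the 7 others were past an adjusted p of 0.05 as higher in DDX6 KO and 4 also past the fold limit, the median was 1.18, and between the knockouts 7 of 7 were past an adjusted p as lower in DGCR8 KO, with a median of -1.46.

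Other genes of chromosome 6 moved in the same direction in DDX6 KO. The 545 tested genes of the chromosome that are no members had a median log2 change of 0.58 in DDX6 KO and 0.09 in DGCR8 KO, and their medians in the DDX6 KO libraries were 0.64, 0.62, 0.53 and 0.52. The 5 other genes within the span of the cluster had a median of 1.03 in DDX6 KO, -0.86 in DGCR8 KO and -1.62 between the knockouts. All 16 members of the chromosome were above 0 in DDX6 KO, 13 of them (81.25%) past an adjusted p of 0.05, beside 17.9% of all genes past it as higher. The like share of the other genes of chromosome 6 was not counted. The 16 include Zfp467 and Zfp786, which passed the level filter through DDX6 KO alone. The 7 outside the cluster had a median of 0.93. With the median of the chromosome taken off, the cluster stood at 0.65. Copy number was not measured, and the part of a gain of this chromosome in these values was not tested.

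Within this cluster, Zfp467, whose product promotes the formation of fat cells, was close to absent outside DDX6 KO. Its counts were 4, 0 and 1 in WT, 0, 2 and 0 in DGCR8 KO, 38 and 15 in clone 1 and 22 and 19 in clone 2. It passed the level filter through DDX6 KO alone, so no test of it is given. Zfp775, at the end of the cluster, was at 29.8, 32.4 and 21.4 CPM in WT, 7.96, 10.5 and 8.96 CPM in DGCR8 KO and 39.6, 51.5, 35.5 and 38.3 CPM in DDX6 KO. No libraries of the 3 genotypes overlapped. It fell by 1.53 on the log2 scale in DGCR8 KO (SE 0.27, adjusted p = 0.000212) and rose by 0.62 in DDX6 KO (SE 0.18, adjusted p = 0.012), the latter no longer past the limit without WT replicate 3 (adjusted p = 0.164).

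Zfp956 was the only member of the 285 called in opposite directions in the knockouts. It held 1.92, 5.45 and 3.34 CPM in WT, 0.918, 1.7 and 0.407 CPM in DGCR8 KO and 6.96, 11.5, 7.74 and 7.84 CPM in DDX6 KO. The log2 change was -1.72 (SE 0.62, adjusted p = 0.0352) in DGCR8 KO and 1.24 (SE 0.37, adjusted p = 0.0143) in DDX6 KO. These calls rest on few counts: the first ended without DGCR8 KO replicate 1 (adjusted p = 0.0975) or 3 (0.112) or WT replicate 2 (0.108) or 3 (0.0631), and the second without WT replicate 3 (0.0825). Zfp282 rose from 17.8, 11.2 and 14.3 CPM in WT to 28.2, 34.8, 34.1 and 35 CPM in DDX6 KO, and Zfp398 from 11, 9.88 and 12 CPM to 22, 26.4, 23.2 and 29.1 CPM. Their log2 changes were 1.24 and 1.17, and neither passed the test in DGCR8 KO. Zfp212 was the 1 member of the cluster that did not pass in DDX6 KO, with a log2 change of 0.37 (adjusted p = 0.118). Its difference between the knockouts (adjusted p = 0.0298) was no longer past the limit without DGCR8 KO replicate 2 or 3 or the second library of either clone (0.0514 to 0.103).

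**Figure D3:**
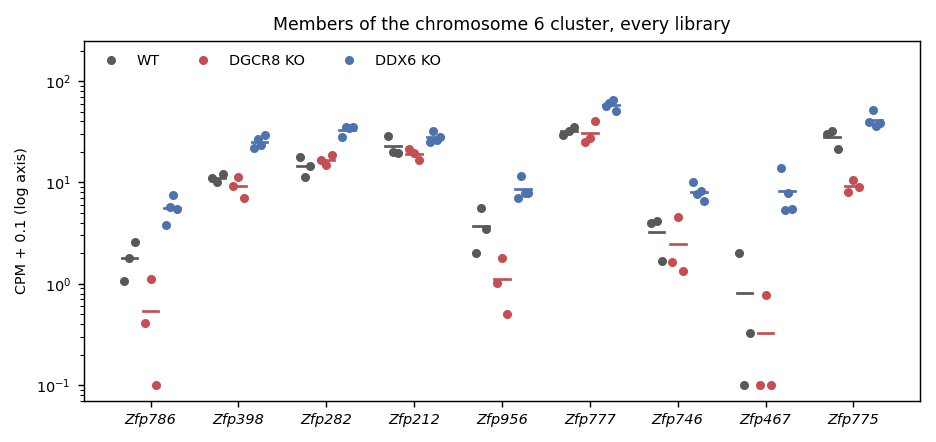
Points give the CPM (plus 0.1, log axis) of the 9 members of the chromosome 6 cluster in every library of WT (grey), DGCR8 KO (red) and DDX6 KO (blue), and lines the group means. Zfp775 sits at 21.4 to 32.4 CPM in WT, 7.96 to 10.5 CPM in DGCR8 KO and 35.5 to 51.5 CPM in DDX6 KO.

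On chromosome 17 the cluster from 32771236 to 33631779 (17b, 10 members) also moved in opposite directions. Its median was 0.51 in DDX6 KO and -0.29 in DGCR8 KO, and its library medians were 0.39, 0.47, 0.42 and 0.61 in DDX6 KO, -0.19, -0.24 and -0.30 in DGCR8 KO and 0.10, 0.08 and -0.17 in WT. The other genes of chromosome 17 had medians of -0.03 in DDX6 KO and 0.00 in DGCR8 KO, and the 5 other genes within the span of the cluster had 0.40 and -0.08, with -0.48 between the knockouts. Between the knockouts, 9 of the 10 were past an adjusted p of 0.05 as lower in DGCR8 KO, beside 21% of all genes. In DDX6 KO 5 of the 10 were past an adjusted p of 0.05 as higher, beside 17.9% of all genes. Zfp871 rose most, from 56.6, 48 and 41.7 CPM in WT to 125, 112, 145 and 121 CPM in DDX6 KO, with no overlap and a log2 change of 1.40 (SE 0.14, adjusted p = 1.15e-06). In DGCR8 KO 3 were called lower, beside 5.81% of all genes. They were Zfp870, Zfp811 and Zfp799, with log2 changes of -1.28, -1.19 and -1.07. The call of Zfp811 ended without WT replicate 2 (adjusted p = 0.0506). Zfp870 went from 41.3, 47.7 and 45.3 CPM to 20.5, 13.9 and 22 CPM in DGCR8 KO (SE 0.19, adjusted p = 3.41e-05). Zfp414 went the other way in DDX6 KO, with a log2 change of -0.71, but 47.5% of the read-length words at its 3′ end also occur in another gene.

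The cluster on chromosome 4 (145510759 to 147848366) was the 1 large cluster that lay below WT in both knockouts. Its 13 members had medians of -0.57 in DDX6 KO and -0.42 in DGCR8 KO, and every library median of the knockouts, from -0.15 to -0.55, lay under the WT range of -0.03 to 0.06. With clone 1 alone the DDX6 KO median was -0.31. Few members passed on their own. In DDX6 KO 4 were past an adjusted p of 0.05 as lower and 1 as higher, and in DGCR8 KO 2 as lower. Of all genes tested, 16.6% were past it as lower and 17.9% as higher in DDX6 KO, and 16.5% as lower in DGCR8 KO. Zfp992 fell from 35.5, 31 and 22.5 CPM in WT to 8.42, 9.74, 5.98 and 7 CPM in DDX6 KO, a log2 change of -1.85 (SE 0.26, adjusted p = 4e-05). Its neighbour Zfp981 fell by 1.11 on the log2 scale. In this cluster 8 of 13 members share over 20% of their 3′-end words with other genes, among them Zfp981 (52.5%), so counts of single members there are uncertain. The 10 other genes within the span had a median of -0.55 in DDX6 KO and 0.12 in DGCR8 KO.

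Both clusters on chromosome 8 were low in DGCR8 KO, as was the whole chromosome. The medians were -0.59 for 8a (69209038 to 69791178, 5 members) and -0.75 for 8b (71882019 to 71971716, 4 members), and that of the 623 other genes of the chromosome was -0.46, with -0.39, -0.50 and -0.42 in the DGCR8 KO libraries. In DDX6 KO their medians were -0.10 and 0.10. Less the chromosome median, 8a stood at -0.14 and 8b at -0.29. The part of a loss of chromosome 8 in these values was not tested. Without the members on chromosomes 6 and 8, 248 remained, with 9 higher and 12 lower in DGCR8 KO, 16 and 8 in DDX6 KO, and 11 and 27 in the direct comparison. The 16 higher in DDX6 KO were 6.45% of the 248, beside 7.55% of all genes, and the 27 lower in the direct comparison were 10.9%, beside 9.32%. The shares of all genes still include chromosomes 6 and 8, so the 2 sets are not alike. Their medians were -0.01, 0.08 and -0.13.

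Among smaller clusters, each of the 3 members of 7a (4915217 to 5053723) was past an adjusted p of 0.05 as lower in DDX6 KO, beside 16.6% of all genes. The cluster had a median of -0.93 there, with library medians of -0.61, -1.28, -0.59 and -0.96. Its member Zfp524 went from 9.12, 9.54 and 11.4 CPM in WT to 8.06, 2.78, 4.57 and 4.2 CPM, without overlap, with a log2 change of -1.15 (adjusted p = 0.00808, and 0.0504 without WT replicate 3). The DDX6 KO change of Zfp580, also in 7a, was no longer past an adjusted p of 0.05 without either second library of a clone or WT replicate 2 or 3 (0.0703 to 0.0878). The clusters on chromosome 2 (150114406 to 150485091, 4 members), 9a (20345136 to 20605409, 5 members) and 9b (22055460 to 22307648, 3 members) had DDX6 KO medians of 0.92, 0.58 and 0.71. The first pair lay above WT in every DDX6 KO library, and 9b overlapped WT and stood at 0.21 with clone 1 alone. Zfp937 on chromosome 2 and Zfp560 in 9a passed the level filter through DDX6 KO alone, and the values of the first pair include them. In DGCR8 KO the 3 members on chromosome 15 (75616679 to 75975749) had a median of -0.62, with library medians of -0.54, -0.57 and -1.07.

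Apart from that on chromosome 4, the clusters with 13 or more members had medians from 0.01 to 0.44. The 13 members on chromosome 13 had medians of 0.12 in DGCR8 KO and 0.07 in DDX6 KO, the 13 members of 7g had 0.01 and 0.19, and the 17 members of 17a (21008941 to 23599487) had 0.06 and 0.44. Without WT replicate 2 the DDX6 KO median of 17a was 0.07. Library medians of each of these 3 clusters overlapped WT in both knockouts. Clusters whose median stood near 0 still held members that moved far. In 7g, Zfp30 was at 15.8, 17 and 16.3 CPM in WT and 4.59, 5.09 and 3.67 CPM in DGCR8 KO, a log2 change of -1.84 (SE 0.33, adjusted p = 0.000252), while its DDX6 KO libraries, at 15.8, 26.1, 22.9 and 17.4 CPM, overlapped WT.

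**Figure D4:**
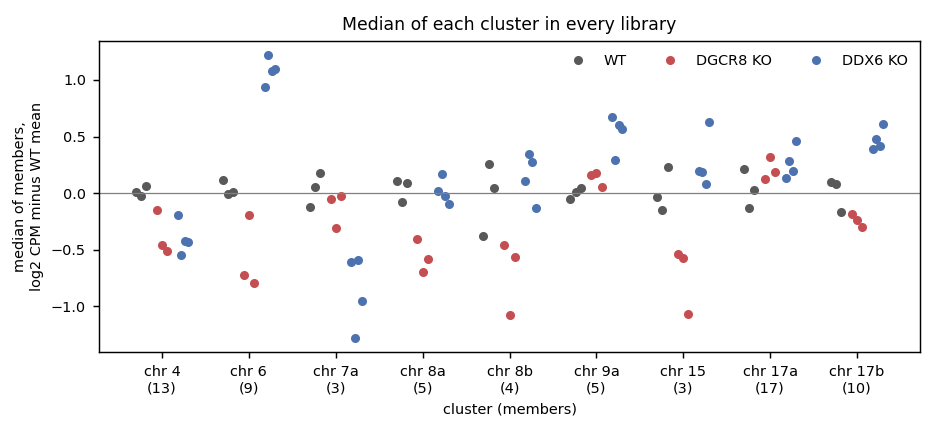
Points give, for each library, the median over the members of a cluster of the log2 CPM less the WT mean, for 9 clusters chosen for their shifts, in WT (grey), DGCR8 KO (red) and DDX6 KO (blue). DDX6 KO libraries lie between 0.94 and 1.22 on chromosome 6 and between -0.19 and -0.55 on chromosome 4.

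Among members with a mean of at least 10 CPM in the higher group, Zfp367 and Zfp827 rose most in DGCR8 KO. Zfp367, on chromosome 13 (64133018 to 64153202), was at 63.4, 53.1 and 41.9 CPM in WT, 173, 191 and 149 CPM in DGCR8 KO and 50.9, 40.4, 52.8 and 44.8 CPM in DDX6 KO. Every DGCR8 KO library lay above every other library, and the log2 change was 1.75 (SE 0.15, adjusted p = 1.21e-07). Zfp148, which binds GC-rich promoter elements, rose from 129, 112 and 125 CPM to 314, 277 and 283 CPM in DGCR8 KO and to 171, 163, 172 and 163 CPM in DDX6 KO. Its log2 changes were 1.26 (SE 0.10, adjusted p = 6.71e-08) and 0.45 (SE 0.10, adjusted p = 0.0021), and the difference between the knockouts was 0.80 (adjusted p = 2.45e-06).

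Zfp827, which brings the NuRD complex to telomeres, followed the same order, with 24.5, 19.1 and 19.2 CPM in WT, 67, 55.6 and 59.1 CPM in DGCR8 KO and 37.4, 26.1, 37.6 and 33.9 CPM in DDX6 KO. The log2 changes were 1.57 and 0.71. Zfp91, which codes for a ubiquitin ligase, rose by 0.92 in DGCR8 KO (SE 0.10, adjusted p = 1.12e-06), under the fold limit, and stood at -0.14 in DDX6 KO (adjusted p = 0.282). Zfp768, Zfp948 and Zfp386 also rose in DGCR8 KO, by 1.48, 1.35 and 1.30.

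Some of these members hold matches to the seed of the ESCC miRNAs, which are abundant in mouse ESCs and need DGCR8 for their processing. The mature sequences, from RefSeq on GRCm38.p6, are shown because they share 1 seed (bases 2 to 8, in capitals).
mmu-miR-291a-3p: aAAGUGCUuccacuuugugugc
mmu-miR-294-3p: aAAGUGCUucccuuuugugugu
mmu-miR-295-3p: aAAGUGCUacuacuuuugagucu
mmu-miR-302b-3p: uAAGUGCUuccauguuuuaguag

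A match was AGCACTT or GCACTTA, which can overlap, on the sense strand of the annotated 3′ UTR of the main coding transcript. Of 261 members with such a UTR, 61 (23.4%) held a match, with a median UTR length of 1235 bases, beside 2095 of 10848 coding genes tested (19.3%) with a median of 998 bases. The windows below come from some of the members with a match that changed in DGCR8 KO, and are a selection rather than the full set. Of the members shown, Zfp148, Zfp367 and Zfp827 rose and Zfp870 fell. Zfp800, which rose, and Zfp799, which fell, also hold matches and are among those not shown. The direction of change of the members shown is therefore no measure of the whole set. Each window lies within 1 exon, with the match in capitals. Zfp148 lies at chr16:33498235-33498264 on the plus strand, Zfp367 at chr13:64133604-64133633 on the minus strand, Zfp827 at chr8:79193465-79193494 on the plus strand and Zfp870 at chr17:32879361-32879390 on the minus strand (GRCm38).
Zfp148: agttgacatagAGCACTTAgaattaatctg
Zfp367: ttttaacttggAGCACTTAtaagtatgata
Zfp827: gtagggttctaAGCACTTtctctctcctgt
Zfp870: gcattaaccccAGCACTTgttttcaccaca

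Zfp367 holds 2 matches in its UTR and Zfp827 holds 3, and both rose, whereas Zfp870 holds 2 and fell. Members with a match had a median log2 change of 0.02 in DGCR8 KO and 0.17 in DDX6 KO, and the 200 with a UTR but no match had -0.11 and 0.14. Of the 61 with a match, 4 were called higher (6.56%) and 4 lower (6.56%) in DGCR8 KO, beside 8.93% and 5.81% of all genes. In DDX6 KO 7 were called higher (11.5%) and 0 lower, beside 7.55% and 3.66%. The 7 include Zfp560 and Zfp629, which passed the level filter through DDX6 KO alone and so had to differ. A match is a description of the sequence and not a measured site. The longest UTR of Zfp871 runs beyond the counted gene, and its 3 matches lie there.

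The deepest decrease among members called in DGCR8 KO was that of Zfp516, an activator of brown fat genes on chromosome 18. It was at 103, 133 and 139 CPM in WT, 14.1, 19 and 27.3 CPM in DGCR8 KO and 84.2, 87.3, 85.5 and 80.3 CPM in DDX6 KO. No libraries of the genotypes overlapped, and the log2 changes were -2.72 (SE 0.20, adjusted p = 1.38e-08) and -0.57 (SE 0.14, adjusted p = 0.00317). Zfp365 and Zfp580 also fell in DGCR8 KO, by 1.59 and 1.54 on the log2 scale. Zfp764 fell by 1.83 (adjusted p = 0.0338), with libraries that overlapped WT. Its call ended without DGCR8 KO replicate 1 or 3 or WT replicate 2 or 3 (adjusted p = 0.0675 to 0.191), and with the replicate number as a block it was no longer past the limit (adjusted p = 0.115).

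In DDX6 KO the largest increase among members with at least 10 CPM was that of Zfp800, on chromosome 6 outside the cluster. It was at 21.6, 18.4 and 10.5 CPM in WT, 35.2, 39 and 26.5 CPM in DGCR8 KO and 61.2, 50.8, 54.5 and 56.5 CPM in DDX6 KO. The genotypes did not overlap, and the log2 changes were 1.16 (SE 0.24, adjusted p = 0.000854) in DGCR8 KO and 1.89 (SE 0.22, adjusted p = 3.99e-06) in DDX6 KO. Zfp536, which holds back neuronal differentiation, was chosen after its values were seen. Its counts were 1, 1 and 0 in WT, 5, 6 and 1 in DGCR8 KO and 17, 7, 17 and 28 in DDX6 KO. It passed the level filter through DDX6 KO alone, so no test of it is given. Zfp941 and Zfp329 rose by 1.29 and 1.22.

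Decreases in DDX6 KO included Zfp428, at 277, 183 and 247 CPM in WT, 274, 208 and 267 CPM in DGCR8 KO and 107, 105, 118 and 107 CPM in DDX6 KO. Its WT and DGCR8 KO libraries overlapped, and the log2 change in DDX6 KO was -1.09 (SE 0.14, adjusted p = 1.19e-05). Zfp936 fell by 1.25 and Zfp975 by 1.22, both in cluster 7h, and 39.0% of the 3′-end words of Zfp975 occur in other genes. Zfp654 fell by 0.86 in DDX6 KO, under the fold limit, and was higher in DGCR8 KO than in DDX6 KO by 1.19 (SE 0.14, adjusted p = 3.54e-06).

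Some members were called in the same direction in both knockouts. Zfp386 and Zfp800 were higher in both, and Zfp961 and Zfp28 lower. Zfp28 passed the level filter through WT alone, so it had to differ and its direction was set by the filter. The DDX6 KO call of Zfp386 ended without WT replicate 2 (adjusted p = 0.109) or the first library of clone 2 (0.0564). Both calls of Zfp28 ended when any of several libraries of either group was left out (adjusted p = 0.0509 to 0.151). Zfp961, in cluster 8b, was at 120, 116 and 114 CPM in WT, 52, 50.9 and 36.2 CPM in DGCR8 KO and 57.1, 46.3, 34.8 and 54 CPM in DDX6 KO. Both knockouts lay clear of WT and overlapped each other, with log2 changes of -1.32 (SE 0.17) and -1.29 (SE 0.15). At an adjusted p alone, 7 members were higher in both, 11 lower in both, 6 fell in DGCR8 KO but rose in DDX6 KO (Zfp185, Zfp599, Zfp775, Zfp799, Zfp866 and Zfp956) and 1, Zfp553, did the reverse. Zfp866 was no longer past the limit in DGCR8 KO without DGCR8 KO replicate 2 (adjusted p = 0.0933) or WT replicate 3 (0.163), nor in DDX6 KO without the first library of clone 1, the second library of clone 2 or WT replicate 1 or 2 (0.0542 to 0.0903). As both use the same WT libraries, these counts are given without a test. The like share over all genes was not counted, so they are not read as a trait of the family.

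**Figure D5:**
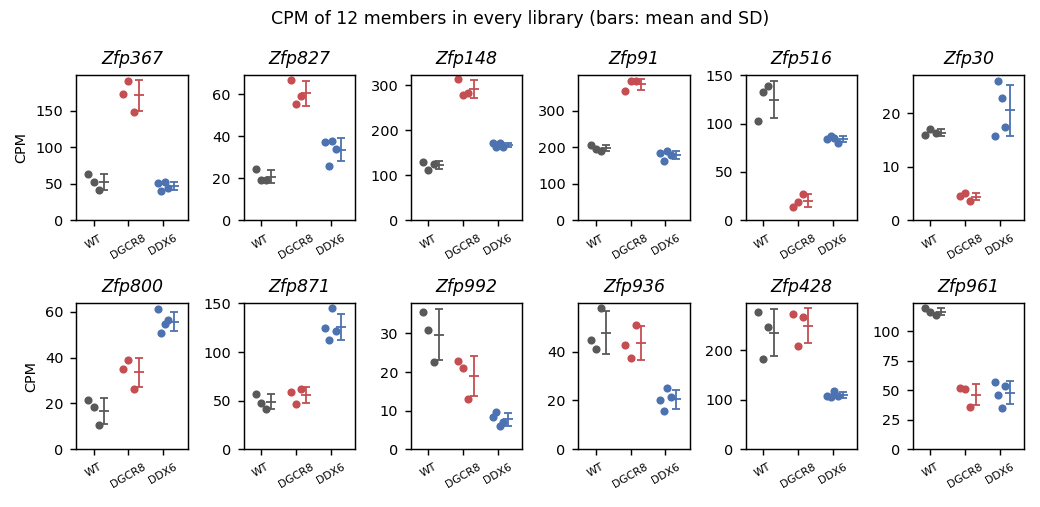
Points give the CPM of 12 members in every library of WT (grey), DGCR8 KO (red) and DDX6 KO (blue), each panel on its own axis from 0, with the mean and SD of each group beside them. Zfp367 stands at 149 to 191 CPM in DGCR8 KO alone, and Zfp871 at 112 to 145 CPM in DDX6 KO alone.

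Against WT, members with known roles in ESCs changed by less than the fold limit, except Zfp335. Among those tied to imprinting, Zfp57, which keeps methylation at imprinted loci, was at 42.7, 30.3 and 40.4 CPM in WT, 25.4, 18 and 34.2 CPM in DGCR8 KO and 34.8, 28.9, 35.2 and 35 CPM in DDX6 KO. It fell by 0.59 in DGCR8 KO (SE 0.21, adjusted p = 0.0314), with overlapping libraries, and was not past the limit without DGCR8 KO replicate 1 or 2 or WT replicate 1 or 3 (adjusted p = 0.0676 to 0.18). Zfp445, with a like role, rose by 0.42 in DDX6 KO, which was not past the limit with clone 1 alone. Zfp568, a repressor of a placental transcript of Igf2, fell by 0.30 in DDX6 KO. The call of Zfp568 ended without either library of clone 1 or WT replicate 1 or 3 (adjusted p = 0.0547 to 0.0792). Of the 3, 1 passed an adjusted p of 0.05 in DGCR8 KO, as lower, and in DDX6 KO 1 passed as higher and 1 as lower.

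Among 3 members tied to transposons, Zfp809, which silences retroviruses, was at 78.3, 58.3 and 64.9 CPM in WT and 35.9, 27.8, 29.9 and 39.5 CPM in DDX6 KO, without overlap, a log2 change of -0.99 (SE 0.15, adjusted p = 7.85e-05). In DGCR8 KO it stood at -0.18 (adjusted p = 0.371). Zfp932 fell by 0.92 in DGCR8 KO (adjusted p = 0.0247), a call that ended with the replicate block (adjusted p = 0.0527) and without DGCR8 KO replicate 1 or 2 or WT replicate 3 (0.0584 to 0.11), and 60.3% of its 3′-end words are shared. Zfp638 passed in neither, with log2 changes of -0.11 and 0.31.

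Of 6 members tied to pluripotency, Zfp462 rose by 0.50 in DGCR8 KO (adjusted p = 0.00416) and Zfp281 by 0.51 in DDX6 KO (adjusted p = 0.00519), and Zfp143, Zfp217, Zfp296 and Zfp706 passed in neither. Of 6 tied to chromatin or RNA, Zfp335, part of a histone H3K4 methyltransferase complex, was at 23.1, 16.7 and 28.8 CPM in WT and 56, 41.1 and 60.3 CPM in DGCR8 KO, a rise of 1.16 (SE 0.20, adjusted p = 0.000194). Zfp326 rose by 0.60 there, but not past the limit without DGCR8 KO replicate 1 (adjusted p = 0.0688) or WT replicate 2 (0.0682). Zfp207, a spindle assembly factor, and Zfp106 had the most 3′-end reads of all members, and both fell, by 0.35 and 0.34 in DGCR8 KO and by 0.42 and 0.35 in DDX6 KO. Without WT replicate 3 the fall of Zfp207 in DGCR8 KO had an adjusted p of 0.0513. Zfp410, which activates Chd4, passed in neither. Zfp352, listed as a zygotic gene, was below the level filter.

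Genes of the KRAB corepressor machinery moved in both directions. Of 20 genes of that machinery tested, 1 was called higher in DGCR8 KO (Chd3, by 1.39) and 1 lower (Uhrf1, which guides maintenance methylation, by 1.03), and at an adjusted p alone 4 were higher (20%) and 3 lower (15%), beside 19.9% and 16.5% of all genes. In DDX6 KO none passed both limits, and at an adjusted p alone 3 were higher (15%) and 5 lower (25%), beside 17.9% and 16.6%. Trim28 itself fell by 0.72 in DDX6 KO (adjusted p = 0.000237), from a mean of 905 CPM to 548 CPM, and stood at -0.29 in DGCR8 KO (adjusted p = 0.0922). Atrx fell by 0.84 in DDX6 KO (adjusted p = 3.37e-06). The 3 that were higher there were Chd3, Pphln1 and Smarcad1, by 0.82, 0.68 and 0.50 (adjusted p = 0.00493, 0.00403 and 0.000221).

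Sequence features that the choice of members did not use were set beside the changes, as medians over members. A KRAB-like match was found in 119 members, whose median log2 change was -0.08 in DGCR8 KO, 0.21 in DDX6 KO and -0.39 between the knockouts. The 166 without had -0.02, 0.08 and -0.10. Of the 119, 13 (10.9%) were called higher in DDX6 KO, and of the 166, 12 (7.23%), beside 7.55% of all genes. Lower in DGCR8 KO than in DDX6 KO were 22 of the 119 (18.5%) and 20 of the 166 (12.05%), beside 9.32%. These counts include the 11 members with at least 3 CPM in libraries of 1 genotype only, which had to differ. Of those 11, 8 were called higher in DDX6 KO, with Zfp560 and Zfp937 among the 119, and 7 lower in the direct comparison. The number of zinc fingers found had a median of 11 and reached 33, and 6 members had none. The 167 members with 10 or more had medians of -0.08, 0.22 and -0.31, and the 118 with fewer had -0.02, -0.00 and -0.03. Level moved with these values as well. The 142 members under the family's median level had -0.15, 0.25 and -0.34, and the 143 at or above it had 0.01, 0.06 and -0.09. The 11 members past the level filter through 1 genotype had a median level of 2.84 CPM and a median log2 change of 1.51 in DDX6 KO. Members in clusters had -0.08, 0.12 and -0.22, close to the -0.02, 0.17 and -0.20 of the 129 outside.

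Between the DDX6 KO clones, 0 of 285 members passed the limits in limma and 7 had an unadjusted p under 0.05, the smallest adjusted p over members being 0.9997. Among all 11683 genes, 5 were called.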

How the data were processed

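Total RNA of 10 mouse ESC libraries was sequenced with the QuantSeq 3′ FWD kit as single-end reads of 50 bases. The deposited values are raw counts per gene. The authors trimmed reads (cutadapt 1.14), aligned them to mm10 (STAR 2.5.3a) and counted them with featureCounts 1.5.3, per the submitters' processing notes and the table's header. Of 51559 rows, 92 spike-ins were set apart, and 51274 of 51467 genes had a symbol.

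Groups came from the titles. Counts were scaled by TMM (edgeR 4.0.16) and fitted with voom weights in limma 3.58.1 (R 4.3.3), with all 10 libraries and the genotype as the only term, over the 11683 genes whose level reached 3 CPM in 3 or more libraries. p-values are two-sided and adjusted by Benjamini-Hochberg over all genes tested. Values of CPM use TMM-scaled totals, and a prior count of 2 on the log scale. The fit was tested on simulated counts. Nothing says that replicates are separate cultures, so p-values measure the spread between these libraries, which may be technical. The DDX6 KO libraries of each clone were fitted as separate replicates, so p-values treat libraries of the same clone as independent. Intervals and floors cover counting error only, as no molecular identifiers are stated.

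Members and lists were chosen with earlier results of these data known. Members named were, in each comparison, the 6 with the largest rise and the 6 with the largest fall among those called with at least 10 CPM and no overlap, the 5 called most in the same and in opposite directions, the 5 with the highest level, those of the role lists, and the extremes of each cluster with 5 or more members. Of these, the text describes those its results turn on, and members named in lists of calls fall outside this rule. Zinc fingers and KRAB-like matches were read from translated transcripts (GENCODE M21) by pattern, and shared 3′ ends as words of 50 bases in the last 500 bases that occur in transcripts of another gene. Whether replicate numbers pair WT and DGCR8 KO libraries was checked by the correlation of deviations from the group means across genes. It was 0.145, 0.267 and 0.285 for like numbers. A fit with the replicate number as a block was therefore an alternative, while the reported fit leaves this pairing out. The other alternatives were edgeR, DESeq2 1.42.0, other scalings and filters, each library or clone left out, and other cluster gaps.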

Additional observations from a re-analysis of the deposited data

Results flagged for a closer look

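Single libraries stood apart within the 4 DDX6 KO libraries for 2 of 105 values examined, which were 82 members and 23 cluster medians. The gap to the nearest library, divided by the range, had to exceed 0.829, a limit that chance passes in about 1 in 20 groups. Zfp282 was at 28.2 CPM in the first library of clone 1 and at 34.1, 34.8 and 35.0 CPM in the others, with a ratio of 0.873. Zfp57 was at 28.9 CPM in the second library of clone 1 and at 34.8, 35.0 and 35.2 CPM in the others, with a ratio of 0.939.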

How the results depend on the processing

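At an adjusted p alone, members higher and lower numbered 27 and 38 in DGCR8 KO, 62 and 32 in DDX6 KO, and 47 and 73 in the direct comparison. A filter of 10 CPM left 11 lower in DGCR8 KO, 11 higher in DDX6 KO and 21 lower in the direct comparison. Leaving out chromosomes 6 and 8 left 16 higher in DDX6 KO and 27 lower in the direct comparison, and clone 2 alone gave 7 higher there. Leaving out 1 library at a time gave 8 to 13 higher and 12 to 18 lower in DGCR8 KO, 13 to 27 higher and 7 to 13 lower in DDX6 KO, and 10 to 14 higher and 37 to 44 lower in the direct comparison, with the 13 reached without WT replicate 3. The family median in DDX6 KO moved from 0.14 to 0.0867 (10 CPM filter), 0.117 (DESeq2), 0.111 (no filter), 0.262 (total counts, which shift the median of all genes by 0.12) and 0.0834 (without chromosomes 6 and 8), and ran from 0.116 to 0.154 with 1 library left out. Cluster medians beyond 0.5 in size numbered 3 in DGCR8 KO and 7 in DDX6 KO. They numbered 1 in DGCR8 KO less the chromosome median, 4 in DDX6 KO with clone 1 alone, and 3 to 4 and 4 to 7 with 1 library left out, the 4 in DDX6 KO being without WT replicate 3. The causes were not tested.

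With the replicate block, 11 members were higher and 17 lower in DGCR8 KO, and the family median was -0.08. That fit has 2 residual degrees of freedom and leans on a prior of 94.7, against 7 and 11.6 in the reported fit, so its p-values are small. It ended the calls of Zfp764 and Zfp932 and no other among the members named. Of 128 values of named members past the limit, 80 stayed past it under every alternative, and none past it changed direction. Leaving out WT replicate 3 ended the most, 25, with 1 library left out. Of 96 such values that involve DDX6 KO, 29 were no longer past the limit with clone 1 alone and 22 with clone 2 alone. Differences between class medians, with and without a KRAB-like or seed match, moved by less than the spread between libraries. Low counts limit the members most, as 3 counts are up to 1.41 CPM.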
